A study of Mus musculus with 8 samples.

Results

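The clustered protocadherins are cell-surface adhesion proteins encoded by 3 neighbouring gene arrays, and 58 of the 24420 genes in the count tables belong to them. Membership followed the symbol alone: Pcdha or Pcdhac with a number (alpha cluster, 14 genes), Pcdhb with a number (beta cluster, 22 genes), and Pcdhga, Pcdhgb or Pcdhgc with a number (gamma cluster, 22 genes). The symbol rule uses no measured value, though the members were chosen with earlier results of these data known. In the annotation of the mouse build GRCm38 the members run from base 36930285 to base 37841873 of chromosome 18, a stretch of 912 kb, with the alpha genes first, the beta genes in the middle and the gamma genes last.

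The libraries were poly(A) RNA-seq of prefrontal cortex from male mice, read as counts per gene. Shank3, a scaffold protein of excitatory synapses, lacked its C-terminal exon 21 on 1 copy in the mutant animals (heterozygous Shank3+/ΔC), and the controls were wild-type littermates. The wild-type group has 3 libraries, the Shank3-deficient group given saline has 3, and the Shank3-deficient group given romidepsin has 2. Romidepsin, an inhibitor of class I histone deacetylases, was injected intraperitoneally at 0.25 mg/kg once a day on 3 days. The cortex was collected 1 day later. Saline animals followed the same schedule, and the labels name no treatment for wild type. The sample labels give an age of 5 to 6 weeks, while the design text gives 5 to 8 weeks. The labels do not state that each library is a separate animal, so every p-value measures the spread between these libraries. Both Shank3-deficient groups carry the same allele, and no wild-type animals given romidepsin are in these data, so a drug effect was measured only on the mutant background.

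Each alpha and gamma transcript begins with a long variable exon that has its own promoter and encodes the extracellular and membrane-spanning parts, and then splices to short constant exons shared by the whole cluster. Beta genes consist of a long exon alone and have no constant part. A neuron switches on a small, largely random set of the alternate promoters, through CTCF, cohesin and a distant enhancer, so that neighbouring neurons display different combinations. The proteins recognise the same combination on another membrane, which lets branches of a neuron tell themselves apart from those of others. The last genes of the alpha and gamma clusters, called C-type (Pcdhac1, Pcdhac2, Pcdhgc3, Pcdhgc4 and Pcdhgc5), are used more broadly and according to cell type.

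This layout limits what gene counts can show. A read inside a constant exon belongs to every gene of its cluster, and a counter that skips ambiguous reads leaves it out, so alpha and gamma genes were measured on their variable exon. That unshared sequence made up 45.1% to 46.7% of the exonic bases of the alternate alpha genes. It made up 54.2% to 58.3% in the gamma cluster, apart from 86.6% in Pcdhgb8, an annotated transcribed pseudogene. Beta genes share no exon with another member. Near-identical stretches between neighbours can also cost reads. Of the 50-base words in the unshared sequence, 10.2% to 26.6% occurred in another gene for the alternate alpha genes. The median was 4.58% in the beta cluster. The range was 0% to 4.25% among Pcdhga genes and 2.69% to 18.1% among Pcdhgb genes, and all C-type genes were at 0%. Values of alternate alpha genes, of most Pcdhgb genes and of Pcdhb11 and Pcdhb12 are therefore the least certain. The length of the reads is not given in the sources used here.

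Pcdha4, Pcdha6 and Pcdha7 had 0 counts in all 8 libraries. These 3 alternate alpha genes share their start with Gm37013, Gm38666 and Pcdha7-g, read-through genes annotated from the alpha into the gamma cluster, so that reads on their variable exons overlap 2 genes. The read-through genes themselves held 5, 9 and 12 counts over all libraries. The 0 for Pcdha4, Pcdha6 and Pcdha7 cannot be read as absence of their RNA. Of the other 55 members, Pcdha8 (39 counts in total) and Pcdhb1 (7 counts) were too low to be tested, which left 53 tested members: 10 alpha, 21 beta and 22 gamma.

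Libraries held 7783537 to 15156318 counts on genes, of which the members took 0.0492% to 0.0540% of them. Whole-gene Shank3 counts do not check the deletion of an exon and overlapped between groups, with 299 to 348 CPM (counts per 1000000 counts of a library, after scaling) in wild type, 252 to 316 in saline and 313 to 315 in romidepsin. The labels call the cells neurons, yet the tissue held other cells: summed markers of astrocytes (5 of 5 with reads) reached 1169 to 1695 CPM and those of oligodendrocytes (5 of 5) 2659 to 4921 CPM, beside 6288 to 7023 CPM for excitatory neurons (5 of 5). Fewer cells of a type and less RNA per cell cannot be told apart in such tissue. Wild-type replicate 3 stood apart from the other wild-type libraries. Its chi-square per degree of freedom over genes was 14.0 against replicate 1 and 9.80 against replicate 2, while replicates 1 and 2 differed by 4.66. It also had the highest summed astrocyte, oligodendrocyte precursor and meningeal markers of its group, at 1695, 126 and 55.7 CPM. The other wild-type libraries reached at most 1279, 91.7 and 36.5 CPM. Its microglia (400 CPM) and endothelial and mural markers (253 CPM) were also highest of the group. Its oligodendrocyte markers (4343 CPM) lay below those of replicate 2 (4429 CPM). Saline replicate 2 also stood apart in its group, at 9.33 against replicate 1 and 8.37 against replicate 3, while those differed by 4.54.

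Levels were compared between genes as CPM per kb of unshared exonic sequence, with CPM scaled by TMM (trimmed mean of M-values). Pcdhgc5 and Pcdhgc3 led all members in wild type by a wide margin. Pcdhgc5, reported to bind a subunit of the GABA-A receptor, lies at 37819546 to 37841873 with its constant exons. Its level per length was 45.3, 45.4 and 37.6 CPM per kb in wild-type replicates 1, 2 and 3, a mean of 42.8 ± 4.47 (SD, n = 3). Pcdhgc3, at 37806410 to 37841873, encodes a protein that binds Axin1 and promotes branching of cortical dendrites. It stood at 23.4, 23.9 and 33.8 CPM per kb in those libraries, a mean of 27.0 ± 5.85. An antisense gene, BC037039, lies over 1513 of the 2568 unshared bases of Pcdhgc3. Since strand may not be told apart, its reads may be counted on Pcdhgc3. Every wild-type library had Pcdhgc5 above every value of Pcdhgc3, although the gap was smallest in replicate 3, where Pcdhgc5 was lowest and Pcdhgc3 highest.

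Pcdhac2 was the leading gene of the alpha cluster and ranked 3 over all members. This C-type gene, at 37143678 to 37187663, is needed for the even spacing of serotonergic axons. It measured 12.3, 12.8 and 10.7 CPM per kb in wild type, a mean of 11.9 ± 1.06, and alone took 51.3% ± 0.786 of the alpha counts. Pcdhgc4, at 37815079 to 37841873, supports the survival of cortical interneurons. It stood much lower than its 2 C-type neighbours, at 4.06, 5.39 and 4.29 CPM per kb, a mean of 4.58 ± 0.713. Pcdhac1, at 37090136 to 37187657, was the lowest C-type gene with 1.07, 1.27 and 1.32 CPM per kb, a mean of 1.22 ± 0.131. It ranked 37 among the 55 members with reads, so that C-type genes stood both at the top of the order and in its lower part. Pcdhgc5, Pcdhgc3, Pcdhac2 and Pcdhga11 were the leading 4 members, in that order, in all 8 libraries. Over 1339 of the 2595 unshared bases of Pcdhga11 lies the antisense gene Gm26672, so antisense reads may be counted there as well. Some other members also have antisense genes over their unshared bases.

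**Figure D1:**
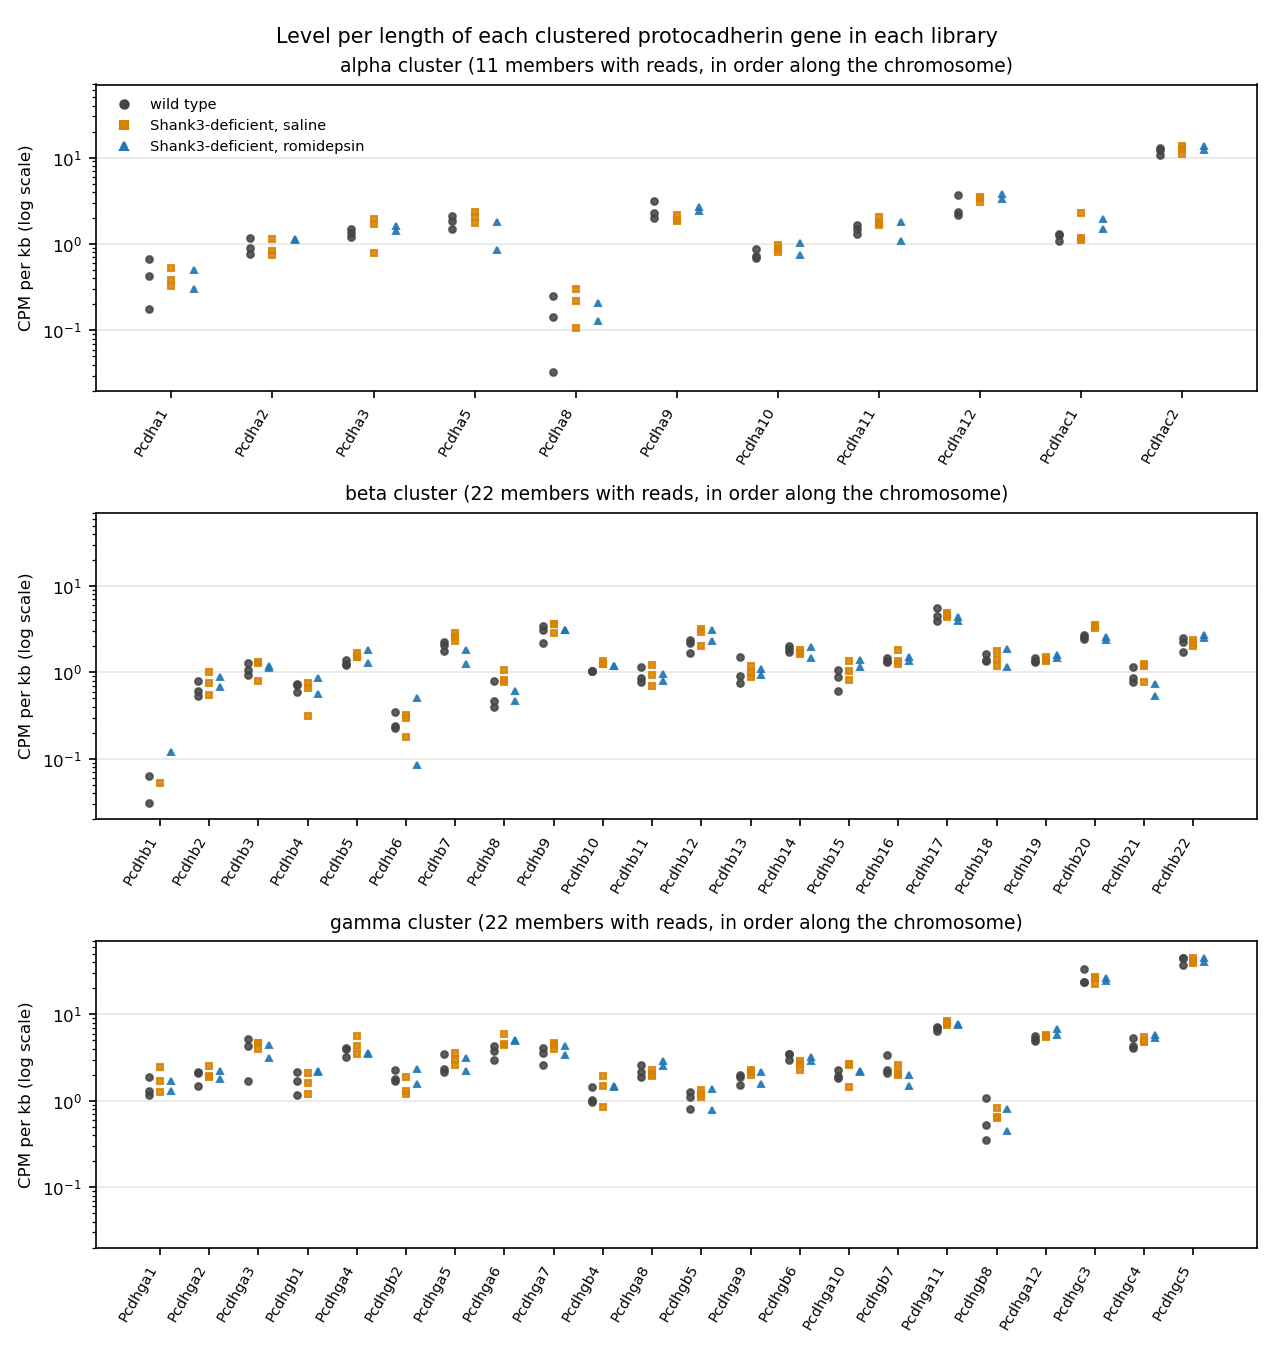
Level of each member with reads in each library, in CPM per kb of unshared exonic sequence on a log scale, with members in their order along the chromosome in 3 panels and points marked by group (values of 0 are not drawn). Pcdhgc5, Pcdhgc3 and Pcdhac2 stand above all others in every library, and the groups lie over one another for most members.

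Members other than the C-type genes formed a low and nearly continuous series. In the alpha cluster Pcdha12 (2.73 ± 0.869 CPM per kb, wild type, n = 3) and Pcdha9 (2.50 ± 0.590) followed Pcdhac2, and Pcdha10 (0.768 ± 0.102), Pcdha1 (0.422 ± 0.243) and Pcdha8 (0.142 ± 0.110) were lowest. In the beta cluster Pcdhb17 (4.69 ± 0.830), Pcdhb9 (2.91 ± 0.630) and Pcdhb20 (2.55 ± 0.143) were highest. Pcdhb8 (0.557 ± 0.218), Pcdhb6 (0.270 ± 0.0653) and Pcdhb1 (0.0315 ± 0.0319) were the lowest beta genes. Pcdhb1 lies first in its cluster and lacks the conserved promoter element that binds CTCF at most members. Its count was 0 to 3 per library. Among the gamma genes Pcdhga11 (6.87 ± 0.397) came after the leading C-type genes, and Pcdhgb4 (1.14 ± 0.268), Pcdhgb5 (1.05 ± 0.237) and the pseudogene Pcdhgb8 (0.648 ± 0.375) were lowest. Median levels were 1.35 CPM per kb in the alpha cluster (11 genes with reads), 1.19 in the beta cluster (22 genes) and 2.62 in the gamma cluster (22 genes).

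Few steps in this order were resolved. Of 54 neighbouring pairs in the order of all members with reads, 4 had wild-type libraries without overlap, namely the steps below Pcdhgc5, Pcdhgc3, Pcdhac2 and Pcdhga11. Within clusters, 2 of 10 neighbouring pairs were separate in alpha, 4 of 21 in beta and 3 of 21 in gamma. From rank 5, Pcdhga12 (5.26 ± 0.355), to rank 55, Pcdhb1, no neighbour was resolved from the next over these 3 libraries. Levels also varied with place in the array. As a description across genes, which share libraries and are not independent, Spearman's rho between level and order along the chromosome was 0.55 over 11 alpha, 0.55 over 22 beta and 0.42 over 22 gamma genes. It was 0.12 over the 19 Pcdhga and Pcdhgb genes without the C-type genes at the end of the gamma cluster.

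Wild-type libraries differed more than read counting alone would give. The median coefficient of variation (CV) of the 53 tested members was 17.0% in wild type, and the median CV expected from the number of reads was 12.2%. In the saline group the medians were 14.4% and 12.9%. Observed spread exceeded 2 times the counting value in 15 of 53 members in wild type and in 11 of 53 in saline. Pcdhgc3 had the largest excess in wild type, 6.42 times, from 60.1, 61.4 and 86.8 CPM. Pcdhga3, an alternate gamma gene singled out after its values were seen, read 11.1 and 13.3 CPM in wild-type replicates 1 and 2 and 4.31 CPM in replicate 3. Its 3 saline values were 10.2, 11.8 and 12.1 CPM and its romidepsin values 11.2 and 8.13 CPM. In wild-type replicate 3, therefore, Pcdhgc3 was the highest and Pcdhga3 and Pcdhgc5 the lowest of all 8 libraries. That library also had the raised astrocyte, oligodendrocyte precursor and meningeal markers given above. Saline replicate 1 had 1609 CPM of astrocyte and 81.0 CPM of meningeal markers, with Pcdhga3 at 10.2 CPM. The part of those cells in these values was not tested.

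**Figure D2:**
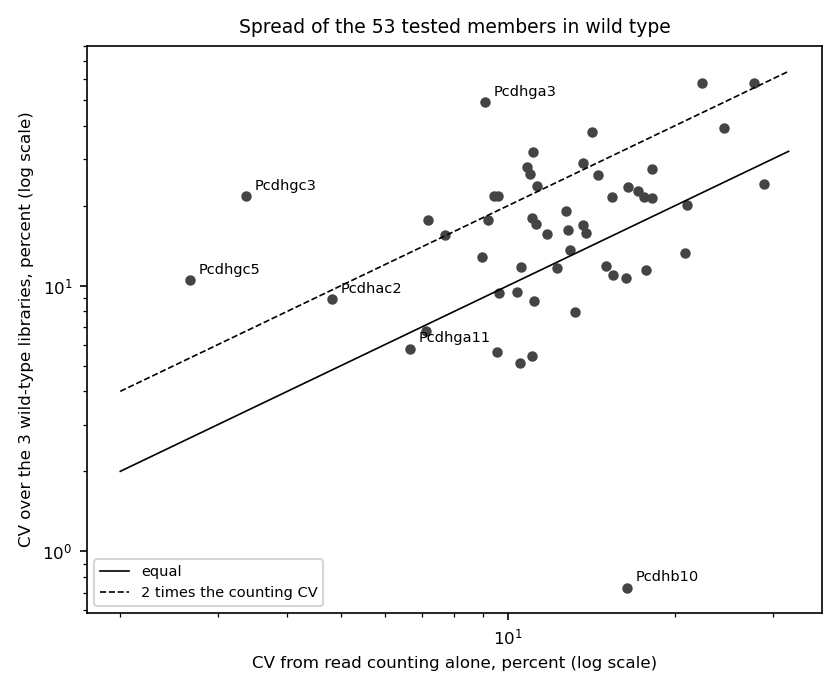
Coefficient of variation of each of the 53 tested members over the 3 wild-type libraries against the coefficient expected from read counting alone, both in percent on log scales. Pcdhgc3, Pcdhgc5 and Pcdhga3 lie above the dashed line at 2 times the counting value, and Pcdhb10 lies far below the solid line of equality.

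Summed over genes, gamma members gave the largest part of the counts in every library. Alpha members summed to 66.4 ± 5.59 CPM in wild type (SD, n = 3), 70.8 ± 6.83 in saline (n = 3) and 72.4 ± 4.94 in romidepsin (n = 2). Beta members summed to 111 ± 5.12, 122 ± 7.40 and 114 ± 4.92 CPM in the same order. Gamma members summed to 327 ± 5.75, 336 ± 7.17 and 334 ± 3.18 CPM. Libraries of the groups overlapped for all these sums, except that both romidepsin values of the gamma sum (332 and 336 CPM) stood above the 3 wild-type values (320, 330 and 330 CPM), a ratio of 1.02. The gamma cluster held 64.9% ± 1.41 of the members' counts in wild type, 63.5% ± 1.19 in saline and 64.2% ± 0.999 in romidepsin, with overlap. The beta share was 21.9%, 22.5% and 21.4% in wild type, 22.7%, 23.7% and 23.0% in saline, and 21.6% and 22.1% in romidepsin, so that saline stood above both other groups. These sums and shares are scores over chosen genes and were given no test.

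The C-type share of the members' counts, singled out after its values were seen, did not overlap between groups and was not tested. The 5 C-type genes took 45.5%, 45.3% and 46.4% of the members' counts in wild-type replicates 1, 2 and 3. The share was 43.6%, 42.3% and 43.5% in saline replicates 1, 2 and 3 and 44.3% and 44.8% in romidepsin replicates 1 and 2. The lowest value was that of saline replicate 2, and the other two saline values were also below every wild-type value. All wild-type values lay above both romidepsin values, and these lay above all saline values. The C-type sum itself overlapped between groups, at 227 to 234 CPM in wild type, 220 to 233 in saline and 226 to 237 in romidepsin. The other 53 members summed to 272, 282 and 266 CPM in wild type and to 285, 315 and 303 CPM in saline, with no overlap and a ratio of 1.10. Romidepsin values of 284 and 292 CPM lay above all wild-type values and overlapped the saline range. Upper-quartile scaling and the size factors of DESeq2 left each of these ratios in the same direction.

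Within the gamma cluster the Pcdhga genes differed in the same direction. Their sum was 103, 106 and 96.5 CPM in wild type, 114, 123 and 118 CPM in saline, and 113 and 112 CPM in romidepsin. Saline exceeded wild type without overlap (ratio 1.16). Romidepsin lay between them without overlap, but its higher value of 113 CPM was just under the lowest saline value of 114 CPM. By fitted ratio 9 of 12 Pcdhga genes were lower in romidepsin than in saline, but none had both romidepsin values below all saline values. Pcdhga8 alone was separate, with both romidepsin values above saline. The Pcdhgb genes overlapped, with 27.6, 29.4 and 37.1 CPM in wild type, 27.5, 30.3 and 28.1 in saline, and 31.7 and 29.8 in romidepsin. Markers of endothelial and mural cells (7 of 7 with reads) also differed without overlap, at 206 to 253 CPM in wild type and 139 to 194 CPM in saline, with 183 to 222 CPM in romidepsin. Summed markers of excitatory neurons (6366 to 6912 CPM in wild type and 6288 to 6660 in saline) and of inhibitory neurons (6 of 6 with reads, 826 to 875 and 835 to 935 CPM) overlapped between these groups. In romidepsin the inhibitory markers stood at 963 and 956 CPM, above all wild-type and saline libraries. The excitatory markers stood at 7023 and 6911 CPM there, above all saline libraries but overlapping wild type. Markers of olfactory bulb (5 of 5 with reads, Tbx21 at 0 in at least 1 library) summed to 9.63, 34.9 and 35.9 CPM in saline and to 7.19 and 8.75 CPM in romidepsin, without overlap, while wild type ran from 6.63 to 21.6 CPM. The part of cell composition in the C-type share and in these sums was not tested, and no test was made of the share itself, which was singled out after its values were seen.

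**Figure D3:**
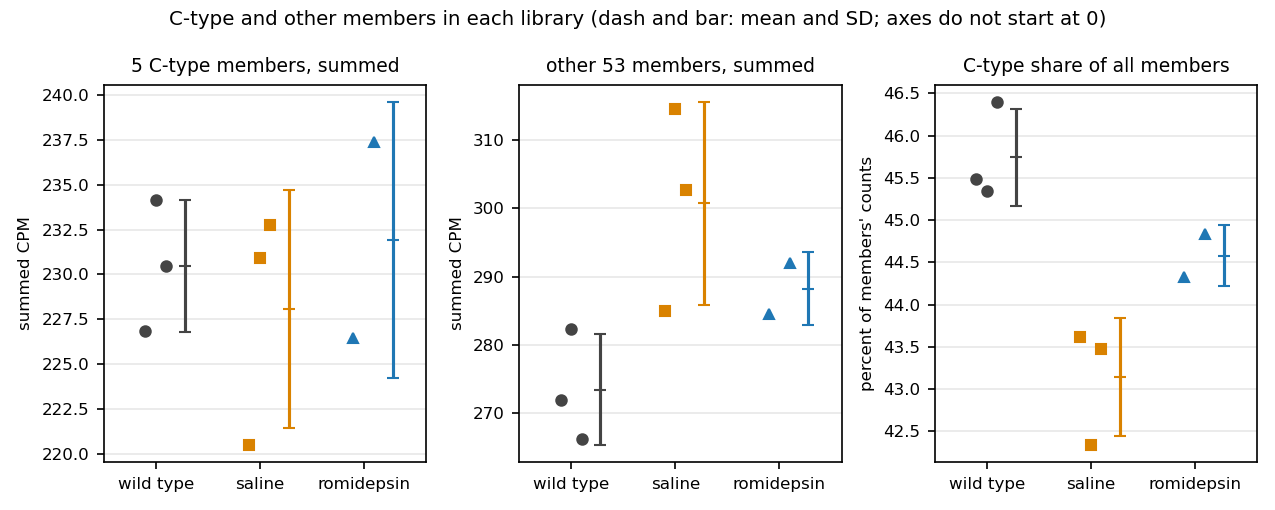
Summed CPM of the 5 C-type members (left), summed CPM of the other 53 members (middle) and C-type share of the members' counts in percent (right), with a point per library and the mean and SD of each group beside it; the axes do not start at 0. The C-type sums overlap between groups, the other members are lowest in wild type, and the C-type share runs from 45.3% to 46.4% in wild type to 42.3% to 43.6% in saline.

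The comparison of saline with wild type asks which genes differ with the mutant Shank3 allele. Saline animals were injected, while the labels name no treatment for wild type, so allele and injection cannot be told apart. No tested member passed an adjusted p of 0.05, over all 14809 genes tested, in the quasi-likelihood test of edgeR. The smallest adjusted p of a member was 0.424, for Pcdhb20. An unadjusted p under 0.05 was found for 2 of 53 members (3.77%) and for 8.39% of all genes tested. DESeq2 and limma-voom also called 0 members. Over all genes tested 0.00675% were called, a single gene. Counting direction without a test, 38 of 53 members were higher in saline, with a median log2 fold change of 0.14 against 0.00 over all genes. Leaving out saline replicate 3 lowered this median to 0.06, and leaving out wild-type replicate 3 lowered it to 0.08. By cluster, 7 of 10 alpha, 16 of 21 beta and 15 of 22 gamma members were higher, with medians of 0.11, 0.10 and 0.16. Among the 12 Pcdhga genes 11 were higher, with a median of 0.22, and among the 7 Pcdhgb genes 3 were higher, with a median of -0.04.

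In 8 members every saline library stood above every wild-type library (Pcdha11, Pcdhb5, Pcdhb7, Pcdhb10, Pcdhb20, Pcdhga6, Pcdhga9 and Pcdhga11), where 6.26% of all genes tested did so. In 1 member, Pcdhgb6, every saline library stood below, where 6.36% of all genes did so. Pcdhb20 read 9.18, 8.21 and 8.62 CPM in wild type and 11.6, 11.8 and 11.2 CPM in saline. Within each group its libraries lay close together, and the fitted ratio was 1.33 (95% interval 1.08 to 1.64, not adjusted for the number of genes). Pcdhga6 read 10.9, 7.61 and 9.72 CPM in wild type and 11.1, 15.1 and 11.7 CPM in saline, a ratio of 1.34 (1.05 to 1.72, edgeR adjusted p = 0.511). Its highest wild-type and lowest saline values almost touched, and the highest of all was in saline replicate 2. The log2 fold change of 0.42 became 0.28 without that library and 0.29 without wild-type replicate 2. Pcdhga11, the highest alternate gamma gene, read 16.7, 18.7 and 18.1 CPM in wild type and 20.5, 21.7 and 19.5 CPM in saline, a ratio of 1.15 (0.986 to 1.35, edgeR adjusted p = 0.629).

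Members lower in saline were fewer. Pcdhgb6 read 7.58, 8.89 and 9.02 CPM in wild type and 6.75, 7.33 and 5.77 CPM in saline, a ratio of 0.783 (0.610 to 1.00, edgeR adjusted p = 0.599). Pcdhgb2 read 4.46, 4.29 and 5.72 CPM in wild type and 3.01, 3.25 and 4.75 CPM in saline, a ratio of 0.743 (0.512 to 1.08, edgeR adjusted p = 0.666). Its groups overlapped through saline replicate 3. Pcdha9 read 5.73, 7.83 and 5.02 CPM in wild type and 5.37, 4.72 and 4.62 CPM in saline, a ratio of 0.797 (0.585 to 1.09, edgeR adjusted p = 0.698), again with overlap. Of the C-type genes none stood apart: the fitted ratios were 1.19 (0.770 to 1.84) for Pcdhac1, 1.04 (0.888 to 1.22) for Pcdhac2, 0.939 (0.774 to 1.14) for Pcdhgc3, 1.10 (0.900 to 1.35) for Pcdhgc4 and 0.983 (0.860 to 1.12) for Pcdhgc5. The Pcdhgc3 ratio turned above 1 without wild-type replicate 3, at a log2 fold change of 0.10 in place of -0.09.

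The intervals show how large a difference these libraries leave possible. Between saline and wild type the 95% interval stayed within a 1.5-fold difference in either direction for 14 of 53 members and within a 2-fold difference for 50 of 53. Among the C-type genes it was narrowest for Pcdhgc5, the member with the most reads. Pcdhb8, singled out for its size, had the largest fitted ratio, 1.57 (0.926 to 2.66), from 0.926, 1.88 and 1.10 CPM in wild type and 1.90, 2.51 and 1.80 CPM in saline, values that rest on 11 to 29 counts per library.

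**Figure D4:**
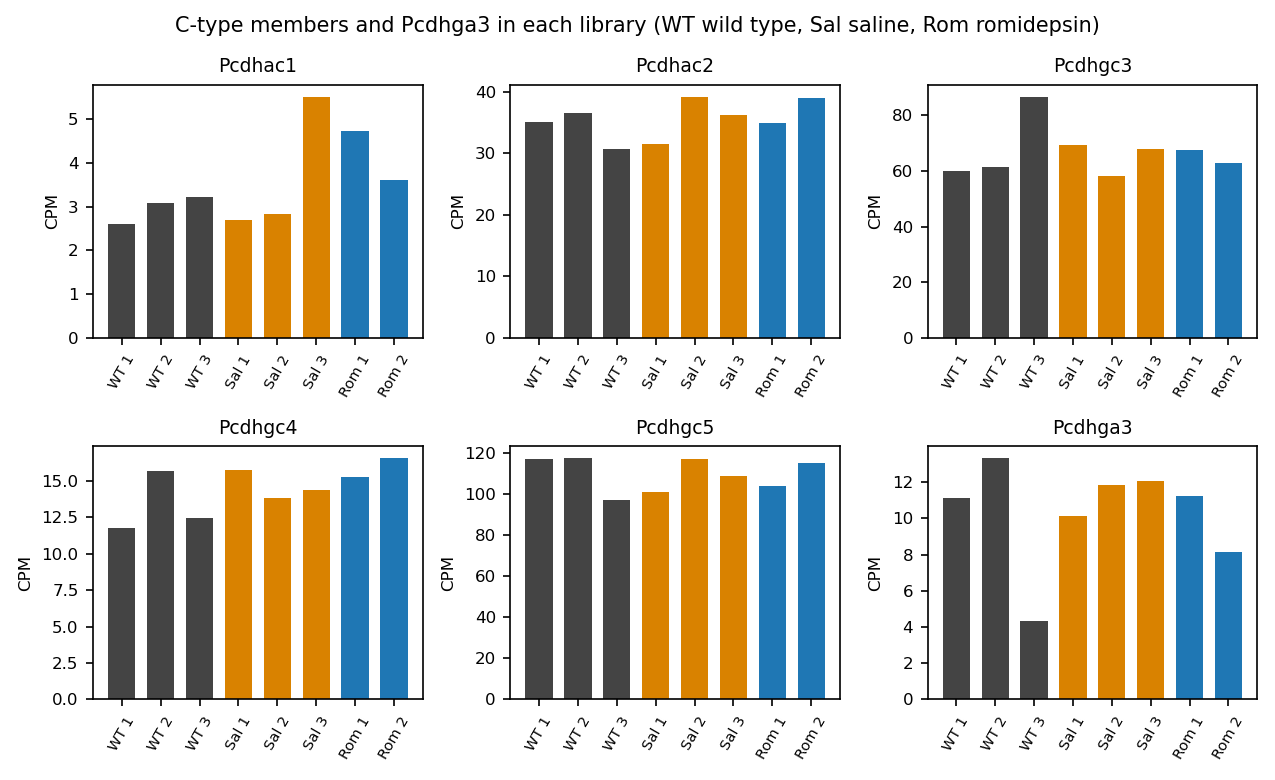
CPM of the 5 C-type members and of Pcdhga3 in each of the 8 libraries, as bars from 0 coloured by group. Wild-type replicate 3 has the highest Pcdhgc3 (86.8 CPM) and the lowest Pcdhgc5 (97.4 CPM) and Pcdhga3 (4.31 CPM) of all libraries. No group stands apart for Pcdhac2, Pcdhgc3, Pcdhgc4 or Pcdhgc5.

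The comparison of romidepsin with saline asks what 3 days of the deacetylase inhibitor did in the mutant cortex. It shares the saline libraries with the comparison above, so that a low or high saline library moves both. No member passed the threshold by edgeR, where the smallest adjusted p of a member was 1.00, nor by DESeq2 or limma-voom. An unadjusted p under 0.05 was found for 2 of 53 members, beside 3.26% of all genes tested. Over all genes tested 0% were called. Directions were mixed, with 24 of 53 higher, a median log2 fold change of -0.01 and a median of 0.00 over all genes. The medians were 0.08 for alpha (7 of 10 higher), -0.01 for beta (9 of 21 higher) and -0.05 for gamma (8 of 22 higher).

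Libraries did not overlap in 11 members. In 4, Pcdha9, Pcdhb22, Pcdhgb1 and Pcdhga8, both romidepsin values lay above saline, against 10.8% of all genes tested. In 7, Pcdhb7, Pcdhb8, Pcdhb10, Pcdhb17, Pcdhb20, Pcdhb21 and Pcdhgb7, they lay below, against 10.2% of all genes. Of these 7 genes 6 are beta genes. Pcdhb7 had the lowest ratio, from 8.12, 9.95 and 8.98 CPM in saline to 6.30 and 4.42 CPM in romidepsin, 0.599 (0.435 to 0.827, edgeR adjusted p = 1.00). Its wild-type values of 7.92, 6.25 and 7.21 CPM overlapped those of romidepsin. Pcdhb20 read 8.77 and 8.03 CPM in romidepsin, a ratio to saline of 0.728 (0.572 to 0.927, edgeR adjusted p = 1.00), of which the first lies inside the wild-type range and the second just below it. Pcdhb21 read 2.10, 3.35 and 3.21 CPM in saline and 1.97 and 1.44 CPM in romidepsin, a ratio of 0.608 (0.355 to 1.04, edgeR adjusted p = 1.00).

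The 3 members with the smallest p among those higher in romidepsin were gamma genes. Pcdhga8 read 5.05, 5.34 and 5.90 CPM in saline and 7.49 and 6.59 CPM in romidepsin, a ratio of 1.31 (0.951 to 1.79, edgeR adjusted p = 1.00). Pcdhgb2 read 5.91 and 3.91 CPM in romidepsin, a ratio of 1.37 (0.899 to 2.09, edgeR adjusted p = 1.00). The second of these values lay inside the saline range. Pcdhgb1 read 3.08, 5.45 and 4.10 CPM in saline and 5.71 and 5.56 CPM in romidepsin, a ratio of 1.36 (0.877 to 2.12, edgeR adjusted p = 1.00), with the saline maximum, in replicate 2, just under the romidepsin minimum. The log2 fold change of 0.45 became 0.68 without that library and 0.23 without saline replicate 1. C-type ratios were between 0.999 (0.803 to 1.24) for Pcdhgc3 and 1.17 (0.726 to 1.90) for Pcdhac1. The interval of Pcdhgc5, 1.01 (0.867 to 1.17), was the tightest among these 5 genes. Intervals lay within 1.5-fold for 15 and within 2-fold for 41 of 53 members.

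The comparison of romidepsin with wild type joins allele, drug and any difference in injection. It shares its libraries with both comparisons above, and its values are therefore given beside them and not as separate evidence. No member passed the threshold by edgeR (smallest adjusted p of a member 0.999), DESeq2 or limma-voom, while 0.00675% of all genes tested were called, a single gene. An unadjusted p under 0.05 was found for 2 of 53 members, against 3.24% of all genes. In 35 of 53 members romidepsin was higher, with a median log2 fold change of 0.05 against 0.00 over all genes. The median moved to 0.20 without romidepsin replicate 1 and 0.17 without wild-type replicate 2. In 9 members romidepsin stood above wild type without overlap (Pcdhac1, Pcdhb10, Pcdhb15, Pcdhb19, Pcdhb22, Pcdhgb1, Pcdhga6, Pcdhga11 and Pcdhga12), against 9.34% of all genes tested. In 2, Pcdhb21 and Pcdhgb7, it stood below, against 9.08%.

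Pcdhga6 had the smallest p, with 12.7 and 12.8 CPM in romidepsin and a ratio to wild type of 1.36 (1.03 to 1.79, edgeR adjusted p = 0.999). Both Shank3-deficient groups stood above wild type for this gene. Pcdhga12 read 15.3, 16.7 and 14.7 CPM in wild type, 16.4, 16.0 and 17.2 CPM in saline and 17.1 and 19.9 CPM in romidepsin, a ratio of romidepsin to wild type of 1.19 (0.979 to 1.44, edgeR adjusted p = 0.999). Pcdhb15 read 1.68, 2.49 and 2.98 CPM in wild type, 3.80, 2.93 and 2.31 CPM in saline and 3.84 and 3.19 CPM in romidepsin, a ratio of 1.47 (0.914 to 2.36, edgeR adjusted p = 0.999). Its wild-type libraries alone differed by more than the ratio.

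Pcdhgb7 had the smallest p among members lower in romidepsin than in wild type, with 5.81, 5.42 and 8.62 CPM in wild type, 5.37, 5.13 and 6.67 CPM in saline and 5.12 and 3.81 CPM in romidepsin, a ratio of 0.676 (0.459 to 0.995, edgeR adjusted p = 0.999). The wild-type mean rested in part on replicate 3. Pcdhb7 stood at a ratio of 0.756 (0.548 to 1.04, edgeR adjusted p = 0.999) with overlap, and Pcdhb21 at 0.671 (0.394 to 1.14, edgeR adjusted p = 0.999) from 2.36, 3.16 and 2.12 CPM in wild type. Of the C-type genes Pcdhac1 was separate, with 2.61, 3.09 and 3.21 CPM in wild type and 4.73 and 3.60 CPM in romidepsin, a ratio of 1.40 (0.868 to 2.26, edgeR adjusted p = 0.999). Its saline values of 2.69, 2.83 and 5.51 CPM spanned both groups. Intervals were within 1.5-fold for 18 and within 2-fold for 42 of 53 members.

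**Figure D5:**
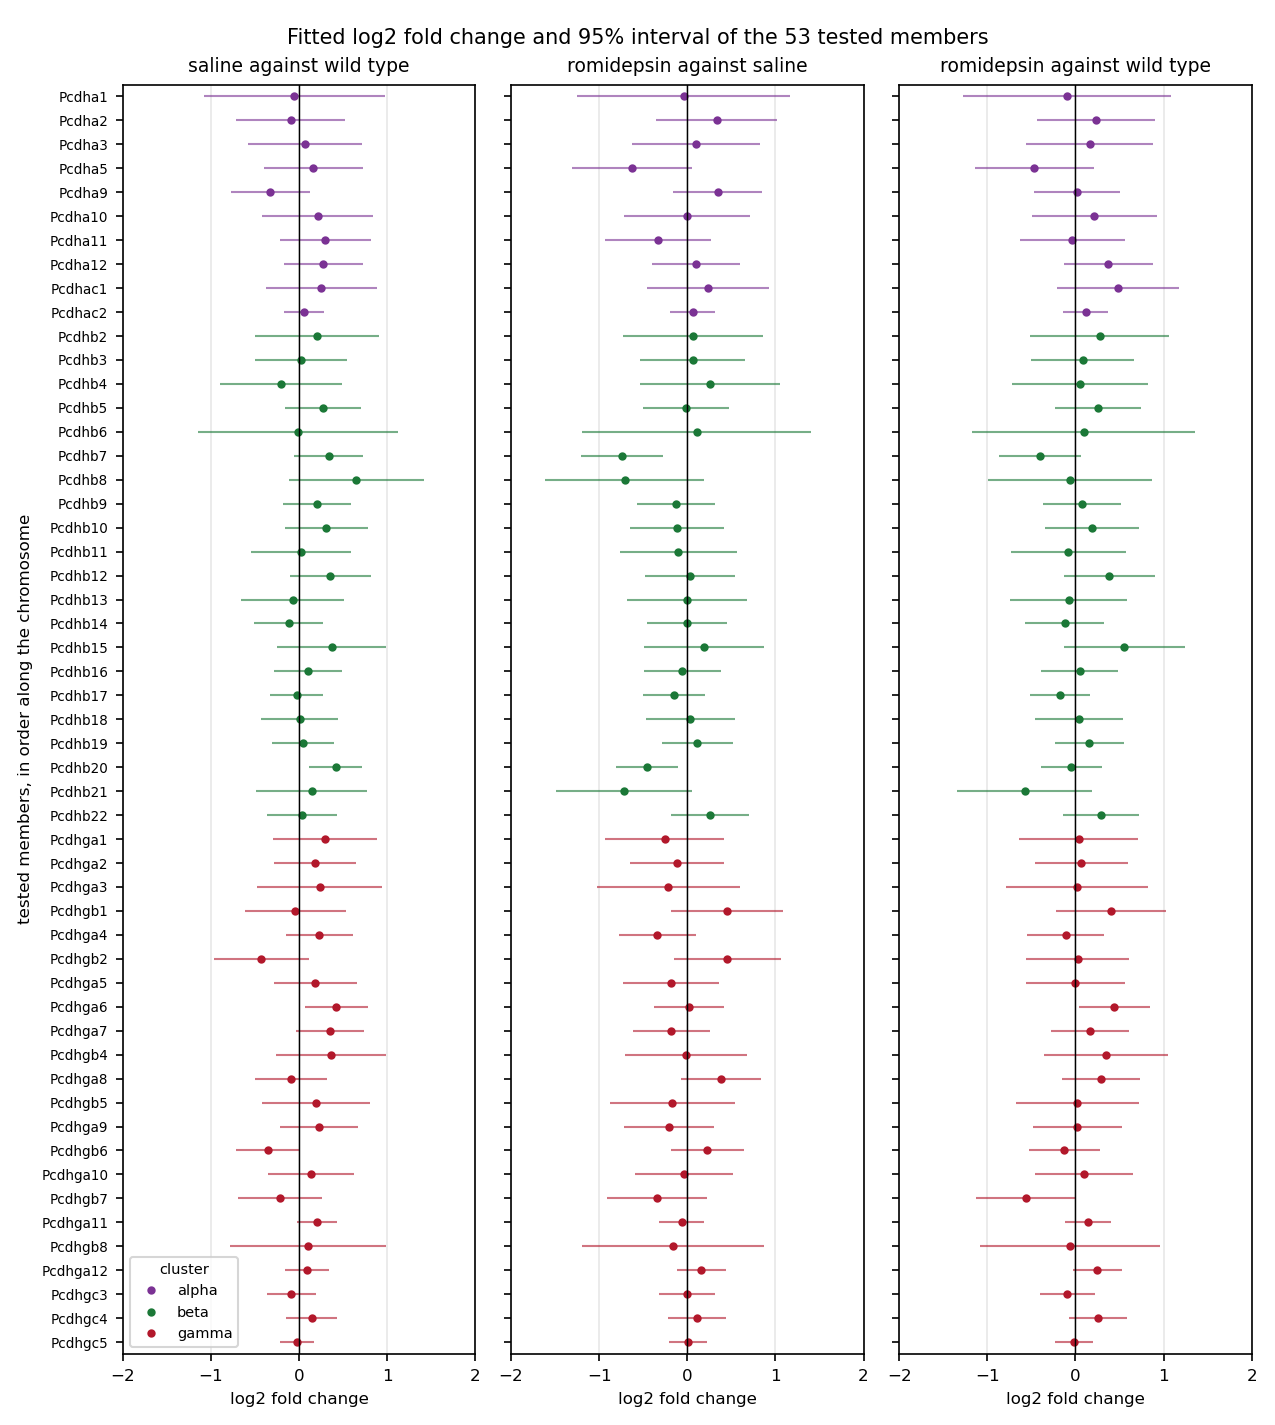
Fitted log2 fold change (points) and 95% interval (lines, not adjusted for the number of genes) of the 53 tested members in 3 comparisons, in order along the chromosome and coloured by cluster. Most intervals cross 0, saline against wild type lies to the right of 0 for 38 of 53 members, and the C-type genes Pcdhgc5 and Pcdhac2 have narrow intervals.

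Genes that set which protocadherin promoters are open were measured alongside. CTCF and cohesin form the loops between promoters and enhancers, Nipbl loads cohesin, Setdb1 keeps the clusters closed in neurons, and Dnmt3b methylates alternate promoters in early development. Of 21 such genes 20 were tested and 0 passed by edgeR in any comparison. Ctcf stood at 70.2 ± 0.440 CPM in wild type, 69.9 ± 0.405 in saline and 66.3 ± 2.44 in romidepsin. In saline against wild type 11 of 20 were higher, with a median log2 fold change of 0.05 and the smallest p for Setdb1 (-0.22, SE 0.10), Nipbl (-0.25, SE 0.12) and Smc1a (0.16, SE 0.09). Setdb1 read 45.1, 51.4 and 55.7 CPM in wild type and 46.1, 41.1 and 43.2 CPM in saline, which overlapped. Against saline, 9 of 20 were higher in romidepsin, with a median of 0.00, and Dnmt3b had the smallest p (0.98, SE 0.59) at 2.27 and 0.823 CPM. Against wild type 11 of 20 were higher in romidepsin, with a median of 0.02. Binding of these proteins at the member promoters was not measured.

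Intracellular partners of protocadherins include the kinases Ptk2, Ptk2b and Fyn, the WAVE actin complex, Axin1 and the protease Adam10. All 21 were tested and 0 passed by edgeR. Marcksl1, a membrane protein that binds actin, had the smallest p in saline against wild type, with 78.6, 70.3 and 64.5 CPM in wild type and 95.9, 97.9 and 83.2 CPM in saline, a log2 fold change of 0.38 (SE 0.10, edgeR adjusted p = 0.296). Romidepsin libraries stood at 87.4 and 102 CPM, the first inside the saline range and the second above it. Medians over the list were 0.05 for saline against wild type (13 of 21 higher), -0.01 for romidepsin against saline (8 of 21 higher) and 0.00 for romidepsin against wild type (10 of 21 higher).

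Protocadherins outside the clusters, each with a promoter and gene of its own, gave 0 calls by edgeR among 12 tested. Pcdh10, an adhesion protein of forebrain axons, read 317, 294 and 301 CPM in wild type and 346, 388 and 355 CPM in saline, a log2 fold change of 0.26 (SE 0.07, edgeR adjusted p = 0.359). Pcdh17 read 128, 133 and 126 CPM in wild type and 154, 164 and 141 CPM in saline, a log2 fold change of 0.25 (SE 0.07, edgeR adjusted p = 0.378). In Pcdh10, Pcdh17 and Pcdh11x every saline library stood above every wild-type library, where 6.26% of all genes tested did so. In Pcdh12 every saline library stood below, where 6.36% of all genes did so. Romidepsin libraries stood at 344 and 333 CPM for Pcdh10 and at 146 and 152 CPM for Pcdh17. The list medians were 0.08 for saline against wild type (8 of 12 higher), -0.05 for romidepsin against saline (3 of 12 higher) and 0.06 for romidepsin against wild type (7 of 12 higher). Of 15 classical cadherins and catenins 0 passed by edgeR, with medians of 0.08 (12 of 15 higher), -0.06 (5 of 15) and 0.05 (9 of 15) in the same order. Cdh2, the neuronal cadherin, read 131, 129 and 128 CPM in wild type, 147, 153 and 145 CPM in saline and 126 and 136 CPM in romidepsin, a log2 fold change of 0.20 (SE 0.07, edgeR adjusted p = 0.443) for saline against wild type.

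Genes that lie between or within 500 kb of the outermost members show the surrounding chromosome region. Of 35 such genes 25 were tested and 0 passed by edgeR. Their median log2 fold change was -0.04 for saline against wild type (10 of 25 higher), 0.03 for romidepsin against saline (15 of 25 higher) and 0.02 for romidepsin against wild type (13 of 25 higher). Among them is Hdac3, a histone deacetylase of the class that romidepsin inhibits, at 73.2, 65.8 and 72.3 mean CPM in wild type, saline and romidepsin. Taf7, a general transcription factor gene between the beta and gamma clusters, stood at 9.01, 8.77 and 8.63 mean CPM.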

How the data were processed

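Gene counts were deposited by the authors as a table per library, made with bcl2fastq 2.17.1.14, TopHat2 2.1.1 and HTSeq 0.6.1 on mm10/GRCm38, per the submitters' processing notes; no label or header states the annotation, strand setting or overlap mode. In the 7 tables with summary entries, 57.4% to 60.2% of reads were in no feature and 0.324% to 0.366% were ambiguous. These shares are of the reads on genes, in no feature or ambiguous. Alignments that were not unique, 3837436 to 6963978 per library, stand outside that base. All these entries stayed out of all totals. The library kit, per the labels' protocols, does not by its name mark strand, so sense and antisense reads may not be told apart.

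The 24420 genes common to all 8 tables were filtered with filterByExpr (14809 tested, 9611 removed), scaled by TMM and fitted in edgeR 4.0.16 (R 4.3.3) by the robust quasi-likelihood test, with a term per group over all 8 libraries, 5 residual degrees of freedom and Benjamini-Hochberg adjustment over all genes tested. The common biological CV was 9.33%. Self-tests on simulated counts were run. DESeq2 1.42.0, limma-voom (limma 3.58.1), upper-quartile scaling, no filter, 2-group fits, a replicate block and leaving out each library were alternatives. Lengths and positions came from GENCODE M21 transcripts within RefSeq GRCm38.p6 gene bounds; all 58 members matched. No 2 replicate tables were identical, and their chi-square per degree of freedom was 3.09 to 14.0.

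Members and gene lists were chosen with earlier results of these data known. Named are the C-type genes, the 3 highest and 3 lowest members of each cluster by level per length in wild type, any member called, the 3 members per direction with the smallest p in each comparison, and genes of the lists with the smallest p; others are named as chosen after their values were seen. Alternatives for medians, C-type sums and Pcdhga sums were added after seeing the data. Each group has 2 or 3 libraries, which limits precision.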

Additional observations from a re-analysis of the deposited data

How the results depend on the processing

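In all 14 alternatives 0 members were called in each of the 3 comparisons, and the smallest adjusted p of a member ranged from 0.304 to 0.857 for saline against wild type. The alpha, beta and gamma sums moved by less than the spread between libraries. Over all genes, the count of calls for saline against wild type was 1 and rose to 29 with DESeq2 and to 54 without wild type replicate 3, and none of these were members.

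Deviations of same-numbered libraries correlated by -0.18 to 0.10 (7 pairs) and those of other libraries by -0.16 to 0.24 (14 pairs). With 2 romidepsin libraries their deviations mirror each other, so these pairs are not independent. Whether replicate numbers pair the libraries cannot be decided from so few. With the replicate block, all genes called were 4, 0 and 0 in the 3 comparisons, and Pcdhgc3 turned to 0.10 against saline and 0.0284 against wild type, and Pcdhgc5 to -0.0348 against saline, for romidepsin (log2). With limma-voom, Pcdhgc3 in romidepsin against saline turned from -0.00147 to 0.000904.

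Leaving out a library turned the sign of C-type genes with log2 fold changes near 0, none of them called. For saline against wild type the ranges were -0.118 to 0.463 (Pcdhac1), -0.0200 to 0.147 (Pcdhac2), -0.183 to 0.0977 (Pcdhgc3) and -0.115 to 0.0277 (Pcdhgc5). For romidepsin against saline they were -0.0291 to 0.139 (Pcdhac2), -0.0775 to 0.0496 (Pcdhgc3) and -0.0655 to 0.0840 (Pcdhgc5). For romidepsin against wild type they were -0.185 to 0.0931 (Pcdhgc3) and -0.107 to 0.0596 (Pcdhgc5). The cause was not tested. The C-type sum for romidepsin against wild type ran from -0.0252 without romidepsin replicate 2 to 0.0431 without romidepsin replicate 1. With all exonic bases as length, the same 3 highest and 3 lowest members were found in each cluster. Depth limits the low members most, since Pcdha1, Pcdha8, Pcdhb1 and Pcdhb6 had 90, 39, 7 and 87 counts over 8 libraries.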

Other observations

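Pcdh12, a protocadherin of endothelial cells that lies near the clusters but is no member, stood at 1.09, 0.904 and 1.18 CPM in wild type, 0.655, 0.419 and 0.513 CPM in saline and 0.197 and 0.206 CPM in romidepsin. Every saline library was below every wild-type library, as for 6.36% of all genes tested. Both romidepsin libraries were below every saline library, as for 10.2% of all genes tested. The log2 fold changes were -0.94 for saline against wild type and -2.33 for romidepsin against wild type (SE 0.63, edgeR adjusted p = 0.999), from few reads. Summed endothelial and mural markers were 206 to 253 CPM in wild type, 139 to 194 in saline and 183 to 222 in romidepsin. The part of vessel content in the Pcdh12 values was not tested.

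Dnd1 and Cd14, neighbours of the clusters on chromosome 18, were among the smallest p of their list. Dnd1 read 1.94, 2.64 and 3.68 CPM in wild type and 1.77, 1.15 and 1.54 CPM in saline (log2 fold change -0.86, SE 0.32, edgeR adjusted p = 0.470). Cd14, a receptor of myeloid cells, read 1.60, 1.66 and 2.90 CPM in wild type. It read 3.54, 4.09 and 2.18 CPM in saline and 3.45 and 3.91 CPM in romidepsin. The log2 fold change was 0.69 for saline against wild type (SE 0.31, edgeR adjusted p = 0.579). For romidepsin against wild type it was 0.84 (SE 0.34, edgeR adjusted p = 0.999), and for romidepsin against saline 0.15 (SE 0.33).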
